A study of Homo sapiens with 8 samples.

Results

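The 10 enzymes described here build, lengthen and desaturate fatty acids: ACLY, ACSS2, ACACA, FASN, SCD, FADS1, FADS2, ELOVL1, ELOVL5 and ELOVL6. They were taken by symbol from a table of read counts, so they are 10 of 23368 gene symbols, and all 10 passed the filter on low counts that left 13395 genes to test. RNA was sequenced from MDA-MB-231 cells, a long-used human line of triple-negative breast cancer, kept in DMEM with fetal calf serum. The INTERFERin reagent carried either the control siRNA siC or one of 3 siRNAs, siE1, siE2 and siE3, each directed at the mRNA of ESRRA, the gene of the orphan nuclear receptor ERRα. There were 2 libraries for each of the 4 groups, 8 in all, from this 1 cell line, and the sources used here do not state how long after transfection cells were harvested. The study asked how loss of ERRα changes the transcriptome of these cells.

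Library totals ran from 21835995 to 25880548 counts. Levels are given as CPM, counts scaled to a library total of 1000000 after TMM scaling, and every mean ± SD has n = 2. The labels do not say whether the 2 libraries of a group were separate cultures, and p-values therefore rest on a spread between libraries that may be technical. ESRRA stood at 62.9 and 64.8 CPM in the siC libraries and at 7.25 to 10.5 CPM in the 6 libraries with an siRNA against it. VIM, an intermediate filament protein of mesenchymal cells, had group means of 3236 to 3953 CPM, while ESR1, PGR and CDH1 had 0 to 3 counts in every library. Of the other markers listed as absent or low in this line, ERBB2 had group means of 52.7 to 68.1 CPM and EPCAM of 9.78 to 12.1 CPM. Transcripts of adipocytes, the classical lipid-making cells, were near 0, with the 6 markers of that list adding up to 0.127 to 0.397 CPM over all libraries and ADIPOQ, LEP and CIDEC without a count. The 6 blood cell markers summed to 0.212 to 0.272 CPM under siC and 0.321 to 0.941 under the ESRRA siRNAs, and the 5 fibroblast markers to 0.363 to 0.847 and 0.132 to 0.696, with 3 and 2 of them at 0 in every library.

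Fatty acid synthesis starts in the cytosol from acetyl-CoA, which ACLY (ATP citrate lyase) cuts from citrate and ACSS2 (acetyl-CoA synthetase) makes from acetate. Acetyl-CoA carboxylase, encoded by ACACA, turns it into malonyl-CoA, and the fatty acid synthase FASN joins these units into palmitate. Elongases of the endoplasmic reticulum then add carbons. ELOVL6 acts on saturated chains of palmitate length, ELOVL1 on very long saturated chains and ELOVL5 on polyunsaturated chains. SCD places the first double bond in saturated chains, and FADS1 and FADS2 are the Δ5 and Δ6 desaturases that make polyunsaturated fatty acids from dietary precursors. Many of these genes are known targets of the sterol-regulated transcription factors SREBP-1 and SREBP-2, and tumour cells often make much of their own fatty acid.

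The 10 mRNAs did not move as a block. ACLY rose 2.96-fold to 3.43-fold with each siRNA, the desaturase pair FADS1 and FADS2 and the elongase ELOVL6 rose by smaller amounts with each siRNA, and ELOVL5, ELOVL1, SCD and FASN rose with some siRNAs and were not called with others. ACSS2 and ACACA, by contrast, fell with siE1, and ACSS2 was called in opposite directions by different siRNAs. Promoters of 4 of these genes are printed here. ACLY had the largest change from siC of the 10, FADS1 and FADS2 rose by similar amounts, and ELOVL5 differed widely between siE2 and the other two siRNAs. Each is the strand of the gene from 250 bases before to 50 bases after a start site, from RefSeq on GRCh38.p14, which is not the hg19 build named by the submitters. Capitals mark CCAAT, on either strand (ATTGG), and the E-box CACGTG.
ACLY, chr17:41918973-41919272, minus strand: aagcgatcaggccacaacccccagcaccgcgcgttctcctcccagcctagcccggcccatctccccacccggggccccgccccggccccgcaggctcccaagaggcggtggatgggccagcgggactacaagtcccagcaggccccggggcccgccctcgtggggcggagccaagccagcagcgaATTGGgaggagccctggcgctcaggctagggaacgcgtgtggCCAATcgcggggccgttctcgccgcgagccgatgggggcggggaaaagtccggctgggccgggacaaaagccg
FADS1, chr11:61816954-61817253, minus strand: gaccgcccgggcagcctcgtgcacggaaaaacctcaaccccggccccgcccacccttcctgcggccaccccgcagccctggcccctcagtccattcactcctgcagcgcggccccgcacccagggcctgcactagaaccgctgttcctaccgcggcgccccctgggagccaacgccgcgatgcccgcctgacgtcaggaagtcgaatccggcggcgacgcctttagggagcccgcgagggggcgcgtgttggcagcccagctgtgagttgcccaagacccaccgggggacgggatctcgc
FADS2, chr11:61816154-61816453, plus strand: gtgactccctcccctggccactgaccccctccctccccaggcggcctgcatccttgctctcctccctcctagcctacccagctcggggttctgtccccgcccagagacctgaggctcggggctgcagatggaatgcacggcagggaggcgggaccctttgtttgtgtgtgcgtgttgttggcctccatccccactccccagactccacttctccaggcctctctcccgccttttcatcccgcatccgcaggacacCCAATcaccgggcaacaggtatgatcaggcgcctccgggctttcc
ELOVL5, chr6:53348901-53349200, minus strand: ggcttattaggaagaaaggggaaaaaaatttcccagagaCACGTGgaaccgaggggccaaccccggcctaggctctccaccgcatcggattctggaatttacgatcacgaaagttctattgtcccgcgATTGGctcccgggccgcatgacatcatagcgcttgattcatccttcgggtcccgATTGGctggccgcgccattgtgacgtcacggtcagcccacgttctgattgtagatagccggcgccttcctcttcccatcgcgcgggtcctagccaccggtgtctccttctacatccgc

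The promoter table held 14 windows for 9 of the 10 enzymes, and FASN had no entry. CCAAT was present in 9 of the 14 windows, which belong to 7 of the 9 genes, and in 34.6% of all 35116 promoter windows of the same length. Windows of 1 gene can overlap. The E-box occurred in the ELOVL5 window, and in 7.26% of all windows. Neither an SREBP element (TCACNCCAC, either strand) nor an ERR element (TNAAGGTCA, either strand) was found in the 14 windows, and these words occur in 1.13% and 0.951% of all windows. The matches are descriptions of letters in these windows, and binding was not measured. FADS1 and FADS2 are neighbours on chromosome 11 that are read in opposite directions. The starts of the printed windows lie 599 bases apart, and that of the other FADS2 window lies 800 bases from the FADS1 start. From these listed starts, each gene is read across the start of the other. Which start of FADS2 these cells use was not measured, so the printed window may not be its main promoter.

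Per kilobase of transcript, the desaturase SCD was by far the most abundant of the 10 mRNAs in control cells. Under siC it stood at 322 ± 3.14 CPM per kilobase, followed by FADS2 at 109 ± 0.261, ELOVL5 at 95.3 ± 3.42, ELOVL1 at 80.7 ± 2.90 and FASN at 73.3 ± 4.36. FADS1 (50.7 ± 2.33) and ACLY (47.5 ± 2.43) came next, and their libraries overlapped, so that their order was not resolved. The least abundant were ELOVL6 (23.2 ± 0.183), ACSS2 (16.3 ± 0.35) and ACACA (14.6 ± 0.922). Lengths were those of the principal GENCODE v29 transcripts, which may differ from the gene models the authors counted. On the same scale ACLY moved from position 7 of the 10 under siC to position 4 under siE1 and 3 under siE2 and siE3. SCD was first in all 4 groups. Under siE3 the ACLY libraries overlapped those of FADS2, the gene next below.

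**Figure D1:**
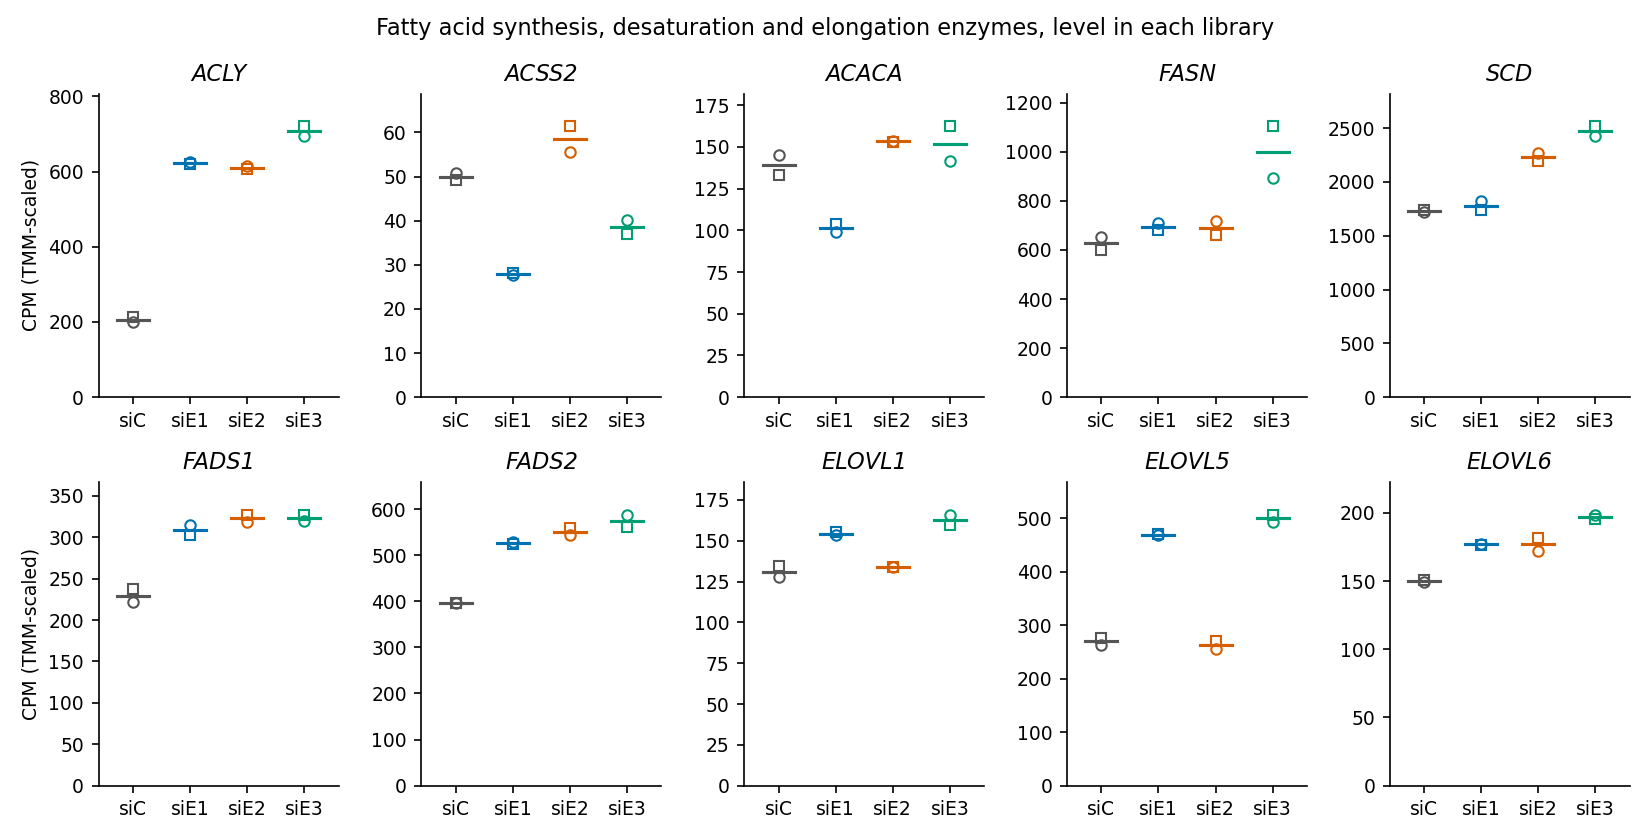
Level of each of the 10 enzyme mRNAs in CPM after TMM scaling (vertical axis, from 0) in the 2 libraries of siC, siE1, siE2 and siE3 (horizontal axis). Circles are replicate 1, squares replicate 2 and bars the mean. ACLY lies between 606 and 721 CPM in the 6 libraries with an ESRRA siRNA and at 199 and 214 in the siC libraries, while ELOVL5 under siE2 lies within the siC range or just below it.

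Acetyl-CoA supply was where the enzymes diverged most. ACLY went up with every siRNA, while ACSS2 fell with siE1 and siE3 and rose slightly with siE2. ACLY was at 199 and 214 CPM under siC, 625 and 619 under siE1, 614 and 606 under siE2, and 693 and 721 under siE3. All 6 siRNA libraries stood above both siC libraries. The log2 fold change was 1.59 (SE 0.0449) with siE1, 1.56 (SE 0.0449) with siE2 and 1.78 (SE 0.0451) with siE3 (edgeR adjusted p = 1.6e-12, 6.0e-12 and 7.0e-13), or 3.01-fold, 2.96-fold and 3.43-fold. In bulk RNA, a change in the number of cells with the transcript and a change in its amount per cell cannot be told apart. By size of log2 fold change, ACLY ranked 141, 204 and 46 from the top of the 13395 tested genes in these contrasts. The siE3 value exceeded those of siE1 by 0.19 (SE 0.0430, edgeR adjusted p = 0.0023) and siE2 by 0.21 (SE 0.0430, edgeR adjusted p = 7.7e-04), and between siE1 and siE2 the difference was 0.03 with a 95% interval of -0.06 to 0.12 (edgeR adjusted p = 0.61).

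Among 9456 other tested genes with a mean of at least 10 CPM, the ones whose 6 differences between group means lay nearest to those of ACLY were UHMK1, ITGB4 and SERPINB9. Their root mean square distances on the log2 scale were 0.136, 0.236 and 0.244. UHMK1, a kinase known to phosphorylate splicing factors, had log2 fold changes of 1.53, 1.47 and 1.90 with siE1, siE2 and siE3, beside 1.59, 1.56 and 1.78 for ACLY. ITGB4, the integrin β4 subunit, averaged 1.47 over the 3 siRNAs, and SERPINB9, an inhibitor of granzyme B, averaged 1.51, beside 1.64 for ACLY. These genes were picked by this distance, so their closeness to ACLY is no separate result. None of the other 9 enzymes was among the 5 nearest genes. The distance counts size, and none of the 9 rose by more than 0.89 with any siRNA, so that outcome was fixed beforehand.

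ACSS2 changed direction between siRNAs. It was at 50.7 and 49.2 CPM under siC, 27.7 and 28.2 under siE1, 55.5 and 61.5 under siE2, and 40.1 and 37.0 under siE3, so that the 4 groups did not overlap. The log2 fold change was -0.84 (SE 0.0705) with siE1, 0.23 (SE 0.0659) with siE2 and -0.37 (SE 0.0685) with siE3 (edgeR adjusted p = 1.4e-07, 0.0081 and 4.3e-04). The siE2 call did not hold without siC replicate 2 (0.20, edgeR adjusted p = 0.061) or without siE2 replicate 2 (0.15, edgeR adjusted p = 0.13), whereas both decreases held without any one library. Every pair of siRNAs differed: siE1 lay below siE2 (log2 difference -1.06, SE 0.0695, edgeR adjusted p = 5.8e-09) and below siE3 (-0.46, SE 0.0721, edgeR adjusted p = 8.5e-05), and siE2 lay above siE3 by 0.60 (SE 0.0676, edgeR adjusted p = 3.2e-06). Its gene overlaps GGT7 on the opposite strand, and without a stated strand setting reads of the overlap cannot be told apart. GGT7 itself had 2.90 to 5.40 CPM in the group means. It rose with siE2 (0.65, edgeR adjusted p = 0.0023). With siE1 and siE3 it was at 0.31 and -0.21 (edgeR adjusted p = 0.12 and 0.35). The part of shared reads in the ACSS2 values was not tested.

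The enzymes of chain synthesis did not follow ACLY. ACACA fell with siE1 only, and FASN rose with siE3 only. ACACA was at 145 and 133 CPM under siC, 98.9 and 104 under siE1, 154 and 153 under siE2, and 141 and 163 under siE3. Both siE1 libraries were below every other library, while siE3 overlapped siC. The log2 fold changes were -0.46 (SE 0.0637) with siE1, 0.14 (SE 0.0624) with siE2 and 0.13 (SE 0.0625) with siE3 (edgeR adjusted p = 2.5e-05, 0.068 and 0.12). The test between siRNAs placed siE1 below siE2 (-0.60, SE 0.0634, edgeR adjusted p = 1.1e-06) and below siE3 (-0.59, SE 0.0635, edgeR adjusted p = 2.3e-06), and between siE2 and siE3 the difference was 0.01 (95% interval -0.12 to 0.15). The siE2 value passed without siC replicate 1 (0.20, edgeR adjusted p = 0.034) and the siE3 value without siE3 replicate 1 (0.22, edgeR adjusted p = 0.0092), whereas the decrease with siE1 was called without any one library. ACACA averaged -0.06 over the 3 siRNAs (SE 0.0512, edgeR adjusted p = 0.32).

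FASN, whose product is palmitate, was at 654 and 601 CPM under siC, 711 and 679.8 under siE1, 717 and 662 under siE2, and 894 and 1105 under siE3. The siE3 libraries were far above the rest but also far from each other, with a coefficient of variation of 14.9% against 3.18% to 5.95% in the other groups. The log2 fold change with siE3 was 0.67 (SE 0.0749, edgeR adjusted p = 3.8e-06), and with siE1 and siE2 it was 0.15 and 0.14 (SE 0.0748 for both, edgeR adjusted p = 0.11 and 0.14). FASN under siE3 exceeded siE1 by 0.52 (SE 0.0746, edgeR adjusted p = 3.6e-05) and siE2 by 0.54 (SE 0.0747, edgeR adjusted p = 2.8e-05). The adjusted p of the smaller FASN values with siE1 and siE2 depended on the siE3 libraries in the fit, while the values themselves moved little. Without siE3 replicate 1 they passed at 0.15 and 0.13 (edgeR adjusted p = 0.019 and 0.025), and without siE3 replicate 2 at 0.15 and 0.13 (edgeR adjusted p = 0.019 and 0.026). In the same fits without siE3 replicate 1 or 2, ACACA also passed with siE2 at 0.14 (edgeR adjusted p = 0.026 in both).

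Among the desaturases, FADS1 and FADS2 moved as a pair and SCD followed a graded order. FADS1 was at 222 and 237 CPM under siC, 315 and 303 under siE1, 318 and 327 under siE2, and 319 and 327 under siE3. FADS2 was at 395 and 397 CPM under siC, 529 and 523 under siE1, 543 and 558 under siE2, and 588 and 561 under siE3. For both genes the 6 siRNA libraries stood above the siC libraries, and the groups of siE1, siE2 and siE3 lay close to each other. FADS1 rose by 0.43 (SE 0.0454), 0.49 (SE 0.0454) and 0.49 (SE 0.0454) on the log2 scale with siE1, siE2 and siE3 (edgeR adjusted p = 1.6e-06, 2.7e-07 and 5.2e-07). FADS2 rose by 0.41 (SE 0.0407), 0.48 (SE 0.0407) and 0.54 (SE 0.0407) (edgeR adjusted p = 8.0e-07, 1.2e-07 and 7.0e-08). No pair of siRNAs differed for FADS1, with 95% intervals of -0.16 to 0.03 for siE1 against siE2 and for siE1 against siE3, and of -0.10 to 0.09 for siE2 against siE3. FADS2 was lower with siE1 than with siE3 (-0.13, SE 0.0404, edgeR adjusted p = 0.018), a call that was lost without siE1 replicate 1, siE1 replicate 2 or siE3 replicate 1 (edgeR adjusted p = 0.060, 0.099 and 0.090).

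The annotations of FADS1 and FADS2 overlap on opposite strands, and FADS2 also overlaps FEN1, a flap endonuclease gene of the same locus. Without a stated strand setting, reads of the FADS1 and FADS2 overlap cannot be told apart, and their part in these values was not tested. FEN1 did not share the pattern of FADS1 and FADS2: its log2 fold changes were -0.01 (siE1), -0.75 (siE2) and -0.16 (siE3), with edgeR adjusted p = 0.88, 7.7e-09 and 0.018. FADS3, the third desaturase gene of that cluster, rose with siE1 (0.27, edgeR adjusted p = 8.8e-04), was at -0.03 with siE2 (edgeR adjusted p = 0.73) and fell with siE3 (-0.30, edgeR adjusted p = 7.2e-04). FEN1 and FADS3 were added after the members' values were seen.

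SCD was at 1717 and 1740.45 CPM under siC, 1819 and 1740.2 under siE1, 2267 and 2193 under siE2, and 2430.1 and 2519 under siE3. The siE1 libraries overlapped siC, and siE2 and siE3 stood above both. The log2 fold change was 0.04 (SE 0.0391, 95% interval -0.04 to 0.13, edgeR adjusted p = 0.39) with siE1, 0.37 (SE 0.0391, edgeR adjusted p = 1.2e-06) with siE2 and 0.52 (SE 0.0391, edgeR adjusted p = 6.8e-08) with siE3. All 3 differences between siRNAs were called. SCD was lower with siE1 than with siE2 (-0.33, SE 0.0391, edgeR adjusted p = 4.1e-06) and siE3 (-0.48, SE 0.0391, edgeR adjusted p = 1.2e-07). It was also lower with siE2 than with siE3 (-0.15, SE 0.0390, edgeR adjusted p = 0.0050), and this last call missed the threshold without siE2 replicate 2 (edgeR adjusted p = 0.055).

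Each elongase rose with siE1 and siE3, and siE2 was where they parted. ELOVL5 showed the widest gap. Its levels were 263 and 276 CPM under siC, 467 and 471 under siE1, 256 and 270.2 under siE2, and 493 and 507 under siE3. The siE1 and siE3 libraries were far above siC, and siE2 overlapped siC. ELOVL5 rose by 0.80 (SE 0.0441) with siE1 and by 0.89 (SE 0.0442) with siE3 (edgeR adjusted p = 1.4e-09 and 9.3e-10), while siE2 gave -0.04 (SE 0.0445, 95% interval -0.13 to 0.06, edgeR adjusted p = 0.52). The difference was 0.83 (SE 0.0442) between siE1 and siE2 and -0.93 (SE 0.0442) between siE2 and siE3 (edgeR adjusted p = 5.9e-10 and 3.7e-10). Between siE1 and siE3 it was -0.09 (95% interval -0.18 to 0.00, edgeR adjusted p = 0.095).

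ELOVL1 behaved like ELOVL5 on a smaller scale. It was at 128 and 134 CPM under siC, 153 and 155 under siE1, 134 and 134 under siE2, and 166 and 159 under siE3. It rose by 0.23 (SE 0.0462) with siE1 and by 0.31 (SE 0.0463) with siE3 (edgeR adjusted p = 6.0e-04 and 6.4e-05), and siE2 overlapped siC at 0.03 (95% interval -0.07 to 0.13, edgeR adjusted p = 0.60). ELOVL1 was higher with siE1 than with siE2 by 0.20 (SE 0.0461, edgeR adjusted p = 0.0014), and lower with siE2 than with siE3 (-0.28, SE 0.0462, edgeR adjusted p = 1.3e-04). ELOVL6, in contrast, rose with all 3 siRNAs. It was at 149 and 151 CPM under siC, 178 and 176 under siE1, 172 and 181 under siE2, and 199 and 196 under siE3. The log2 fold change was 0.24 with siE1 and with siE2 (SE 0.0442 and 0.0443, edgeR adjusted p = 3.6e-04 and 2.9e-04) and 0.40 with siE3 (SE 0.0442, edgeR adjusted p = 3.9e-06). Its rise was larger with siE3 than with either other siRNA, by 0.16 in both cases (SE 0.0438, edgeR adjusted p = 0.0082 and 0.0079). The first of these calls was lost without siE1 replicate 2 (edgeR adjusted p = 0.053) and the second without siE2 replicate 1 (edgeR adjusted p = 0.089).

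**Figure D2:**
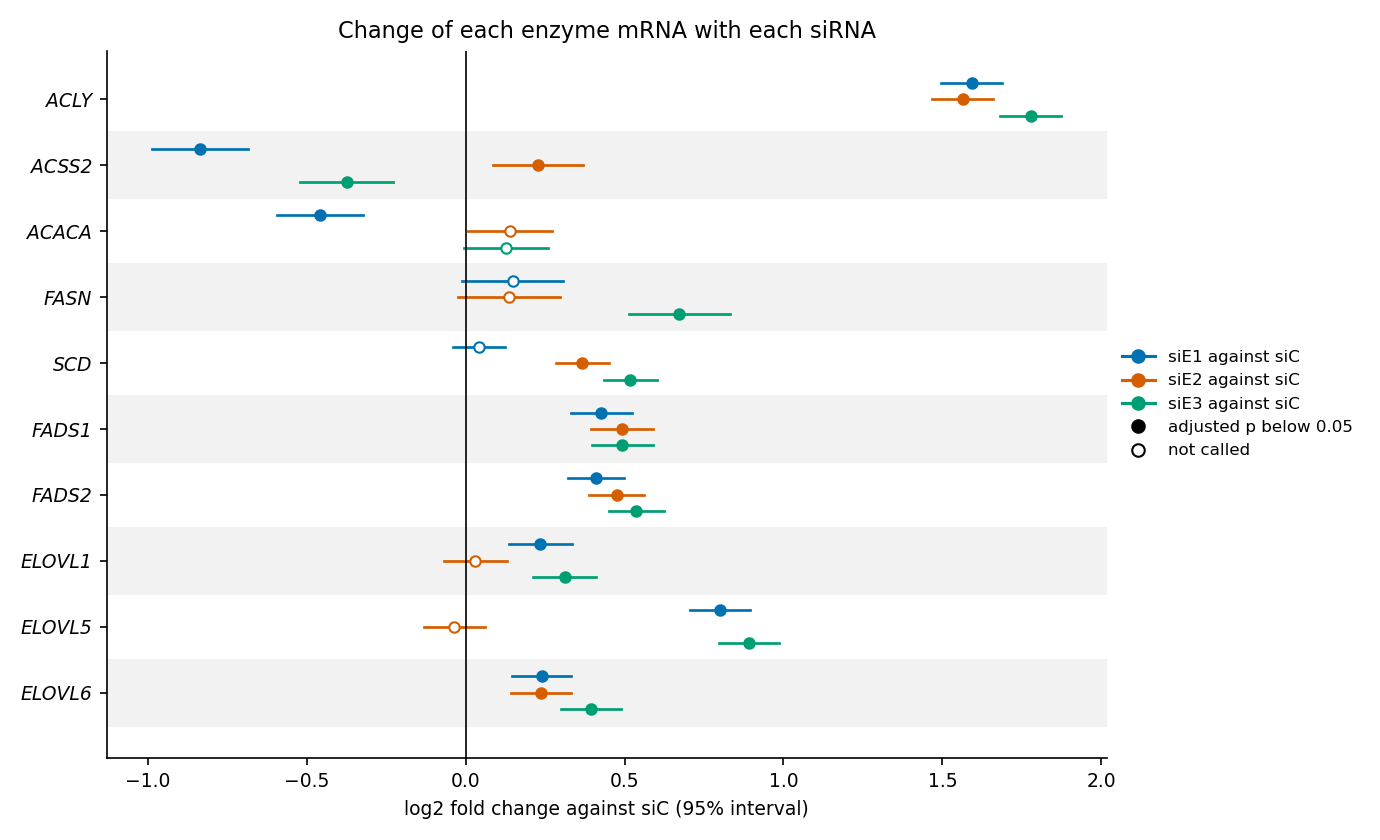
Log2 fold change against siC (horizontal axis, with 95% intervals) of the 10 enzyme mRNAs (rows) for siE1, siE2 and siE3. Filled points have an edgeR adjusted p below 0.05 and open points do not. ACLY lies between 1.56 and 1.78 with each siRNA, ELOVL5 is at -0.04 with siE2 and at 0.80 and 0.89 with the other two, and ACSS2 has points on both sides of 0.

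Counted over the 10 enzymes, siE3 called the most and siE2 the fewest. With siE1, 6 rose and 2 fell, where 24.5% of all tested genes were called higher and 25.8% lower. With siE2, 6 rose and 0 fell, against 27.9% and 28.5% of all tested genes. With siE3, 8 rose and 1 fell, against 21.3% and 20.8%. In the average of the 3 siRNAs 8 rose and 1 fell, against 23.4% and 27.7%. The median log2 fold change of the 10 was 0.24, 0.23 and 0.51 with siE1, siE2 and siE3, where the median of all tested genes was -0.0085, 0.0056 and -0.0018. ACLY, FADS1, FADS2 and ELOVL6 were the 4 called higher with each of the 3 siRNAs, a pattern shown by 8.73% of tested genes, and 0 of the 10 were called lower with each, against 7.42%. ACSS2 was the 1 enzyme called in opposite directions by different siRNAs, as were 10.7% of tested genes. These contrasts share the siC libraries, and the enzymes were listed with earlier results of the data known.

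Most of these changes were modest. With a fold of at least 1.5 required as well, siE1 kept 3 (ACLY and ELOVL5 higher, ACSS2 lower), against 14.7% of tested genes. With siE2 only ACLY was left, against 18% of tested genes, and with siE3 ACLY, ELOVL5 and FASN were left, against 9.97%. In the authors' deposited table, 23 of the 30 pairs of enzyme and siRNA had an adjusted p below 0.05, and these were the same 23 pairs as called here. For ACLY the authors' deposited table gives folds of 3.03, 2.94 and 3.43.

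Most of the enzymes also differed between siRNAs. Of the 10 enzymes, 9 differed between at least 1 pair of siRNAs, where 75.2% of tested genes did, and FADS1 was the exception. SCD and ACSS2 differed between every pair, as 17.7% of tested genes did. Between siE1 and siE2, 2 enzymes were called higher and 3 lower with siE1, against 28.5% and 28.6% of tested genes. Between siE1 and siE3, 0 were higher and 7 lower with siE1, against 23.3% and 25.4%. Between siE2 and siE3, 1 was higher and 6 lower with siE2, against 23.4% and 25%. The siE3 libraries gave the higher level in 13 of the 14 called differences that involve it, ACSS2 between siE2 and siE3 being the exception. ESRRA itself was lower with siE3 than with siE1 (siE1 against siE3: 0.30, SE 0.108, edgeR adjusted p = 0.031), and between siE2 and siE3 its difference was -0.06 (95% interval -0.31 to 0.18, edgeR adjusted p = 0.67). How the enzyme differences relate to the remaining ESRRA mRNA was not tested.

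**Figure D3:**
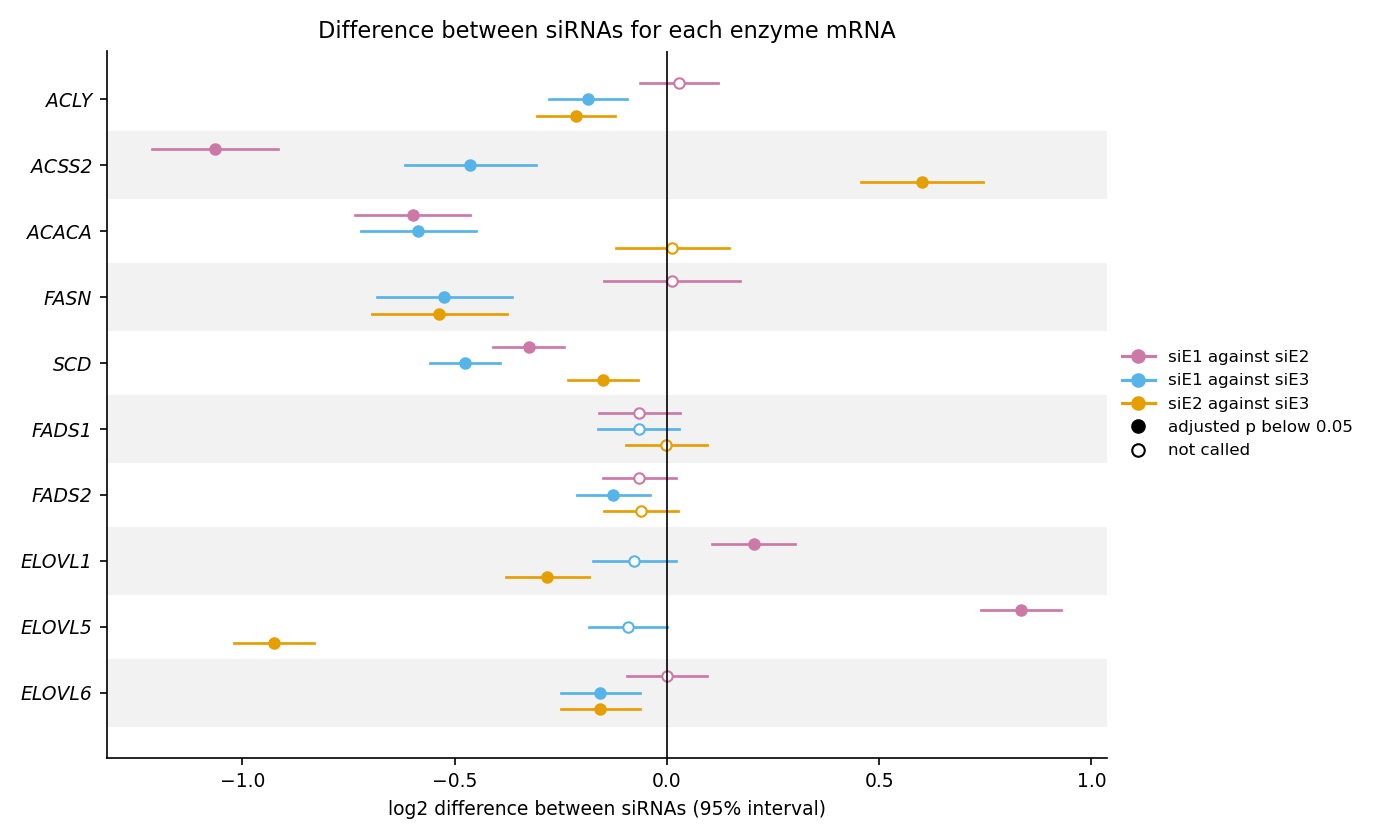
Log2 difference between siRNAs (horizontal axis, with 95% intervals) of the 10 enzyme mRNAs (rows), for siE1 against siE2, siE1 against siE3 and siE2 against siE3. Filled points have an edgeR adjusted p below 0.05. FADS1 has 3 open points near 0, ELOVL5 lies at 0.83 and -0.93 in the contrasts with siE2, and ACSS2 spans -1.06 to 0.60.

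Lists of genes around the 10 enzymes were counted in the average of the 3 siRNAs, where 23.4% of all tested genes were called higher and 27.7% lower. Among paralogs of the enzymes 7 of 10 were tested, and 0 rose and 1 fell in the average. That one was ACSS1, the mitochondrial acetyl-CoA synthetase, at -0.32 (SE 0.122, edgeR adjusted p = 0.040), a call lost without any of siC replicates 1 and 2, siE1 replicate 1, siE2 replicate 1 and siE3 replicate 2 (edgeR adjusted p = 0.075 to 0.18). By siRNA, ACSS1 was called with siE3 only (-0.66, edgeR adjusted p = 0.0034). SCD5, the other stearoyl-CoA desaturase, fell with siE3 (-0.69, SE 0.0991, edgeR adjusted p = 4.9e-05), where SCD rose, and was at 0.04 and 0.11 with siE1 and siE2. ACACB and ACSS3 were at 0.17 and 0.08 in the average and were not called (edgeR adjusted p = 0.26 and 0.31). FADS6, ELOVL2 and ELOVL4 had too few counts to test.

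The elongation cycle needs 3 further enzymes beside an elongase, a ketoreductase, a dehydratase and an enoyl reductase, and 1 of the 5 tested genes of these steps rose and 2 fell in the average, against 23.4% and 27.7% of all tested genes. The ketoreductase HSD17B12 fell with siE3 (-0.66, SE 0.0622, edgeR adjusted p = 6.7e-07), where each elongase of the list rose, and averaged -0.27 (SE 0.0492, edgeR adjusted p = 3.4e-04). With siE1 and siE2 HSD17B12 was not called (-0.14 and 0.0028, edgeR adjusted p = 0.068 and 0.97). The dehydratase HACD2 (PTPLB in the table) averaged -0.24 (SE 0.0551, edgeR adjusted p = 0.0017) and its relative HACD3 (PTPLAD1) 0.16 (SE 0.0372, edgeR adjusted p = 0.0024), the latter not called without siC replicate 2 (edgeR adjusted p = 0.090). TECR, the enoyl reductase, was at 0.06 (edgeR adjusted p = 0.23). By siRNA, HACD3 was called with siE1 only (0.31, edgeR adjusted p = 3.8e-05). HACD2 was not called with siE3 (-0.15, edgeR adjusted p = 0.086).

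Of 8 genes for citrate export and reducing power, 4 rose and 0 fell in the average, against 23.4% and 27.7% of all tested genes, and without either siC library only 2 did. SLC25A1, the mitochondrial citrate carrier that feeds ACLY, rose by 0.19 (SE 0.0415, edgeR adjusted p = 0.0013) and CYB5R3, the cytochrome b5 reductase, by 0.13 (SE 0.0318, edgeR adjusted p = 0.0024). SLC25A1 was not called with siE1 (0.09, edgeR adjusted p = 0.16), nor CYB5R3 with siE3 (0.08, edgeR adjusted p = 0.11). IDH1, a source of cytosolic NADPH, split by siRNA: it fell with siE1 (-0.41, SE 0.0523, edgeR adjusted p = 9.5e-06) and rose with siE2 (0.53, SE 0.0505, edgeR adjusted p = 3.4e-07) and siE3 (0.26, SE 0.0510, edgeR adjusted p = 8.4e-04). Malic enzyme ME1 averaged 0.12 (edgeR adjusted p = 0.032), and in the average both IDH1 (0.13) and ME1 were lost without siC replicate 1 (edgeR adjusted p = 0.069 and 0.11) or siC replicate 2 (edgeR adjusted p = 0.17 and 0.18). ME1 was lost too without siE1 replicate 1, siE1 replicate 2 or siE2 replicate 1 (edgeR adjusted p = 0.052, 0.063 and 0.071).

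Mitochondrial fatty acid synthesis, a separate pathway that supplies lipoic acid, had 0 genes that rose and 5 that fell among its 9 tested genes in the average, against 23.4% and 27.7% of all tested genes, with a median of -0.32 against -0.01. NDUFAB1, the mitochondrial acyl carrier protein, averaged -0.33 (SE 0.0401, edgeR adjusted p = 6.2e-06) and was called lower with each siRNA. OXSM, the ketoacyl synthase, averaged -0.49 (SE 0.0846, edgeR adjusted p = 1.7e-04), LIAS, the lipoic acid synthase, -0.68 (SE 0.122, edgeR adjusted p = 2.4e-04), and the reductase MECR -0.32 (SE 0.0712, edgeR adjusted p = 0.0015). With siE1, siE2 and siE3 alone 5, 5 and 5 of the 9 fell, against 25.8%, 28.5% and 20.8% of all tested genes, and 1, 1 and 0 rose, against 24.5%, 27.9% and 21.3%. With siE3 the number that fell was 3 without either siC library and 2 without either siE3 library, and 2 by the DESeq2 Wald test.

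Of 13 genes that control lipid synthesis, 6 rose and 3 fell in the average, against 23.4% and 27.7% of all tested genes. INSIG1, the sterol-dependent brake on SREBP processing and itself an SREBP target, rose by 0.90 (SE 0.0839) with siE2 and by 1.09 (SE 0.0839) with siE3 (edgeR adjusted p = 3.0e-07 and 8.5e-08), and by 0.25 (SE 0.0844) with siE1 (edgeR adjusted p = 0.022). The siE1 call was lost without siC replicate 1 (0.16, edgeR adjusted p = 0.21) and without siE1 replicate 1 (0.12, edgeR adjusted p = 0.31). SCD likewise had its smallest value with siE1 and its largest with siE3, as did FADS1 and FADS2 by small margins. The other enzymes did not share this order. ACLY, FASN, ELOVL1, ELOVL5 and ELOVL6 had their smallest value with siE2, and ACACA and ACSS2 their largest. A link between INSIG1 and the enzymes was not tested. SREBF1, which encodes SREBP-1, was at 0.21 (edgeR adjusted p = 0.087), 0.32 (edgeR adjusted p = 0.012) and 0.50 (edgeR adjusted p = 8.5e-04) with siE1, siE2 and siE3, and was added after its values were seen. The oxysterol receptor gene NR1H3 rose by 0.66 in the average (SE 0.116, edgeR adjusted p = 2.3e-04), while its partner RXRB (-0.36, SE 0.0531, edgeR adjusted p = 4.3e-05) and MLX (-0.26, SE 0.0410, edgeR adjusted p = 7.0e-05), the partner of the carbohydrate-responsive factor, fell. NR1H3 was not called with siE1 (0.25, edgeR adjusted p = 0.16). Nor were RXRB with siE3 (-0.13, edgeR adjusted p = 0.13) and MLX with siE1 (-0.10, edgeR adjusted p = 0.11).

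Of 8 tested genes that control acetyl-CoA carboxylase, which includes the subunits of the kinase AMPK that inhibits it, 0 rose and 4 fell in the average, against 23.4% and 27.7% of all tested genes. Of the 4, only the catalytic subunit PRKAA1 was called lower with each siRNA. Its siE2 call did not hold in every fit with 1 library left out (-0.25 to -0.17). PRKAG2 and PRKAB2 were not called with siE1 (-0.12 and -0.02, edgeR adjusted p = 0.088 and 0.89). PRKAG1 was not called with siE3 (0.06, edgeR adjusted p = 0.43). In the average, PRKAA1 was at -0.25 (SE 0.0436, edgeR adjusted p = 1.9e-04) and the γ2 subunit PRKAG2 at -0.22 (SE 0.0452, edgeR adjusted p = 8.2e-04). PRKAG1 (-0.20, edgeR adjusted p = 0.0025) was lost without siC replicate 2 (edgeR adjusted p = 0.080) and PRKAB2 (-0.30, edgeR adjusted p = 0.0033) without siC replicate 1 (edgeR adjusted p = 0.055). Among 15 tested genes that activate fatty acids or assemble glycerolipids, 7 rose and 3 fell in the average, against 23.4% and 27.7% of all tested genes, or 5 and 1 without siC replicate 2. ACSL1, a long-chain acyl-CoA synthetase, averaged -0.67 (SE 0.0562, edgeR adjusted p = 1.5e-07), with -0.84 and -0.94 under siE2 and siE3. Under siE1 ACSL1 was only at -0.22 (edgeR adjusted p = 0.014). That call did not hold in every fit with 1 library left out (-0.31 to -0.14). The acyltransferase AGPAT1 rose by 0.32 (SE 0.0429, edgeR adjusted p = 2.0e-05), the phosphatidate phosphatase LPIN1 by 0.23 (SE 0.0345, edgeR adjusted p = 4.6e-05) and the lipid droplet protein PLIN3 by 0.32 (SE 0.0364, edgeR adjusted p = 3.2e-06). LPIN1 was not called with siE1 (0.08, edgeR adjusted p = 0.12).

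**Figure D4:**
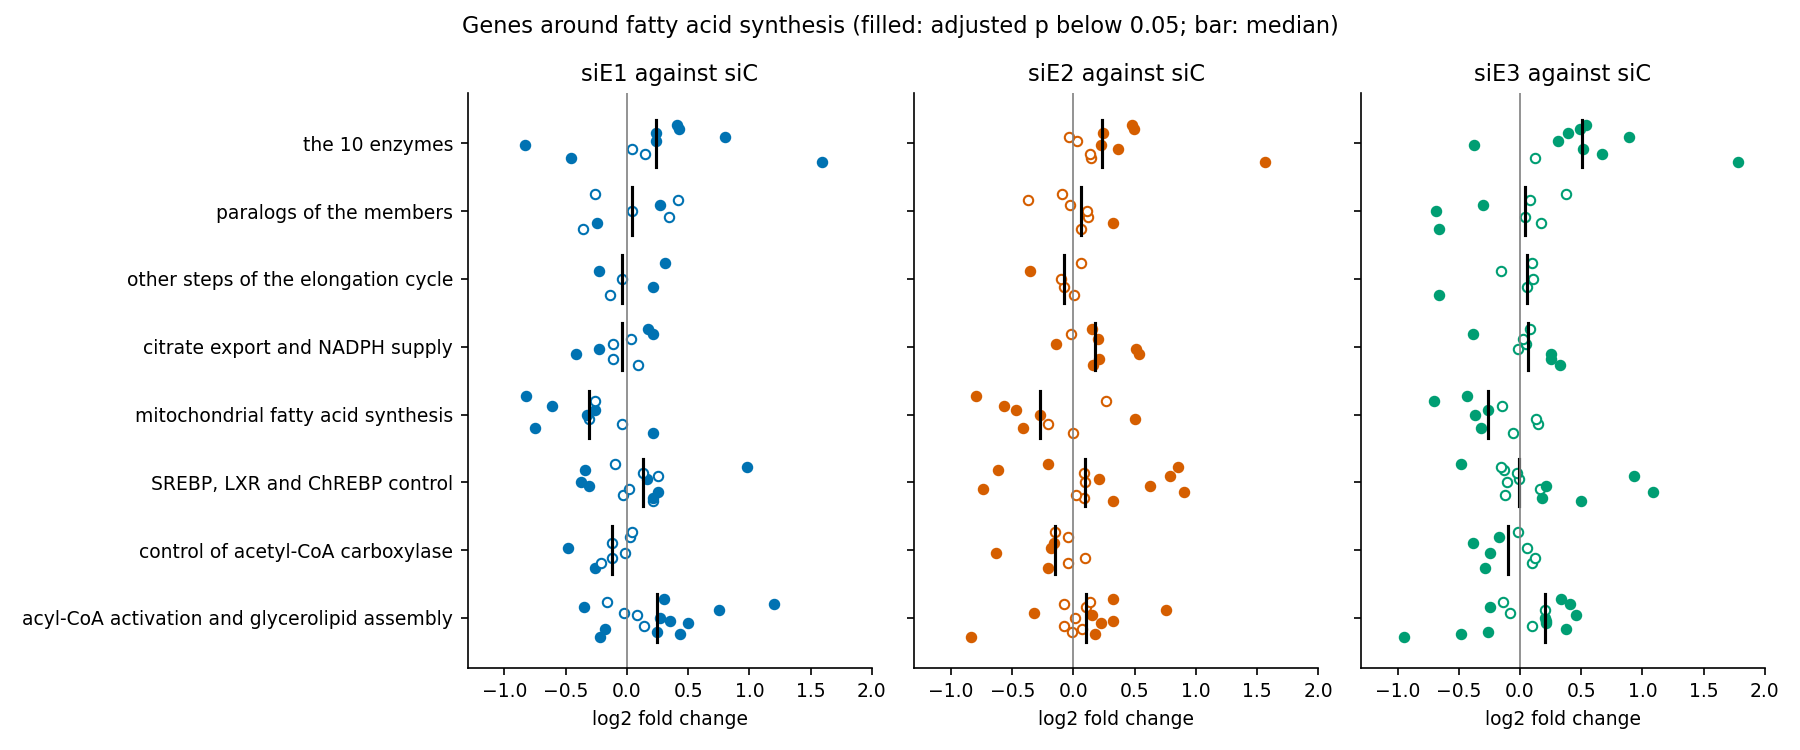
Log2 fold change against siC (horizontal axis) of the 10 enzymes and of 7 lists of genes around them (rows), for siE1, siE2 and siE3 (panels). Each point is a tested gene, filled points have an edgeR adjusted p below 0.05, and bars are medians. The median of the 10 enzymes is 0.24, 0.23 and 0.51, and that of mitochondrial fatty acid synthesis is -0.31, -0.27 and -0.26.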

How the data were processed

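The deposited table holds, per the file headers, raw read counts per gene symbol for 8 libraries, and the authors' fold (a linear ratio) with its adjusted p-value for every ESRRA siRNA. TopHat 1.3.3, HTSeq, DESeq and hg19 appear in the submitters' processing notes. The sources used here do not give the gene annotation, strand setting or filters. The authors' deposited fold and p-value columns were used only beside the calls made here.

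Sample titles gave the groups. No read was counted for 5492 of 23368 symbols. The filter filterByExpr and TMM scaling (factors 0.98 to 1.02) in edgeR 4.0.16 preceded the quasi-likelihood test (glmQLFit, glmQLFTest), fitted once over 8 libraries with a mean per group, leaving 4 residual degrees of freedom (biological coefficient of variation 4.08%). There were 7 contrasts, each with Benjamini-Hochberg adjustment over 13395 genes and a threshold of 0.05. SE was taken as the size of the log2 fold change over the square root of F. The script was tested on simulated counts. Replicates did not agree within sampling noise (chi-square per degree of freedom 3.11 to 5.12 within groups, 40.6 to 75.1 between them). Marker levels were scaled by library totals only.

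The members and lists were chosen with earlier results of these data known. Named were ESRRA, all members, up to 4 genes of each list with the smallest p in the average, and the 3 nearest to ACLY. Alternatives were DESeq2 1.42.0 size factors and Wald test, library size alone, no filter or a stricter one (at least 1 CPM on average and 50 counts summed), limma-voom (limma 3.58.1), the groups compared only, a block for replicate number, each library left out in turn and a required fold of 1.5. R 4.3.3, Python 3.11.15, pandas 2.3.3 and matplotlib 3.10.9 were used.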

Additional observations from a re-analysis of the deposited data

Results flagged for a closer look

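Like 10.7% of all tested genes, ACSS2 was called in opposite directions by different siRNAs against the same control. For ACSS2 the test between the siRNAs was called as well. With siE1 it was at -0.84 and with siE2 at 0.23, a difference of -1.06 (SE 0.0695, edgeR adjusted p = 5.8e-09). With siE3 ACSS2 was at -0.37, and the siE2 to siE3 difference was 0.60 (SE 0.0676, edgeR adjusted p = 3.2e-06). In each case both libraries of one siRNA lay beyond both libraries of the other. The increase with siE2 was lost without siC replicate 2 or siE2 replicate 2, while both differences were called without any one library. The part of reads shared with GGT7, which overlaps ACSS2 and also rose with siE2, was not tested.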

How the results depend on the processing

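With a fold of at least 1.5 required, the number of enzymes called became 3 (siE1), 1 (siE2), 3 (siE3), 1 (average), 3 (siE1 against siE2), 1 (siE1 against siE3) and 2 (siE2 against siE3), in place of 8, 6, 9, 9, 5, 7 and 7. Leaving out 1 library gave 8 to 9, 5 to 8, 9 to 10, 9 to 9, 5 to 5, 5 to 7 and 6 to 7, and all other settings stayed within 1.5 times. Of single enzyme values, 8 calls were lost and 8 gained with a library left out, and 0 were lost and 10 gained under the other settings. Values that changed sign were not called. With library size only these were ELOVL5 (siE2, 0.00784) and, between siE1 and siE2, ACLY (-0.00683), FASN (-0.0226) and ELOVL6 (-0.0338), and FADS1 between siE2 and siE3 (0.0419). With the stricter filter they were ELOVL6 (siE1 against siE2, -0.00335) and FADS1 (siE2 against siE3, 0.0144), and without a filter HSD17B12 (siE2, -0.00482). With 1 library left out, the values that crossed 0 ran from -0.00807 to 0.0658 for ELOVL1 (siE2), -0.0766 to 0.00236 for ELOVL5 (siE2), -0.0461 to 0.0793 for FASN (siE1 against siE2), -0.0274 to 0.0368 for ELOVL6 (siE1 against siE2), -0.0222 to 0.0155 for FADS1 (siE2 against siE3), -0.0853 to 0.116 for ACACA (siE2 against siE3), -0.0943 to 0.0481 for PRKAB2 (siE1), -0.0412 to 0.124 for SCD5 (siE1), -0.0151 to 0.224 for SCD5 (siE2), -0.0184 to 0.0197 for HSD17B12 (siE2), -0.149 to 0.344 for ACACB (siE2) and -0.0306 to 0.107 for ACACB (siE3). FASN also passed with siE1 and siE2 when only the groups compared were fitted (edgeR adjusted p = 0.010 and 0.020) and without a filter (0.0155 and 0.032). With siE2 FASN passed under library size only as well (edgeR adjusted p = 0.041). ACACA passed with siE2 under library size only, the groups compared only, the stricter filter and no filter (edgeR adjusted p = 0.017, 0.021, 0.042 and 0.048). INSIG1 with siE1 did not pass the DESeq2 Wald test (adjusted p = 0.14). The lists around the 10 enzymes, and the genes that the naming rule took from them, were given these alternatives after the data had been seen. ESRRA, SREBF1, FADS3, FEN1 and GGT7 were not. Fitting only the groups compared has no separate value for the average, which uses all groups.

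With the replicate number as a block, the same numbers of enzymes were called (8, 6, 9, 9, 5, 7 and 7), and of the genes named around them ACSS1 and ME1 in the average (edgeR adjusted p = 0.060 and 0.052) and PRKAB2 with siE3 (0.065) were lost. The numbers do not pair the libraries in the same way across groups. Over 9457 genes, the deviations of same-numbered libraries from their group means correlated at 0.269 for siC with siE3 and 0.401 for siE1 with siE2. In the other pairs of groups they correlated at -0.441 to -0.358. The block by replicate number is therefore no check on a batch shared across groups, and such a batch was not tested. With 2 libraries per group, differences as small as the 0.14 of FASN and ACACA with siE2 crossed the threshold under some settings and not under others. The spread of about 4.08% is a common value over all tested genes. Under siE3 the coefficient of variation was 14.9% for FASN and 9.8% for ACACA (n = 2).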
